A study of Mus musculus with 60 samples.

Results

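The collagen, laminin and integrin genes of the mouse were followed through 16 peak lists of dorsal root ganglia, which hold glia and the sensory neurons that send axons into the sciatic nerve and the spinal cord. They were chosen by symbol alone: Col, a number, a and a number for 44 collagen genes, Lam with a, b or c and a number for 11 laminin genes, and the starting letters Itga or Itgb for 28 integrin genes. This gave 83 of the 21887 protein-coding genes of the RefSeq table for GRCm38.p6. One of the 28, Itgb3bp, encodes a nuclear protein that is named after an integrin and is not one, and it was kept because the rule is by letters.

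The mice were C57BL/6, 6 to 8 weeks old, and their L4 to L6 ganglia were taken 24 hours after surgery. The surgeries were axotomy of the sciatic nerve (SNA), a sham operation on that nerve (Sham), axotomy of the spinal dorsal columns (DCA) and laminectomy, the opening of the spine without axotomy (Lam). ATAC-seq, which finds DNA open to a transposase, used 3 samples of 1 mouse each for every surgery. Chromatin immunoprecipitation for H3K9ac and H3K27ac, marks of active promoters and enhancers, and for H3K27me3, a mark of repressed chromatin, used 2 samples of 10 pooled mice each, with inputs. The authors pooled the replicates before calling peaks, so each assay and surgery is 1 list. No difference below therefore has a replicate check, and intervals cover counting error only.

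Collagens are triple-helical matrix proteins: the fibrillar types make up the connective tissue of the nerve, and type IV forms the sheet of the basement membrane. Laminins are trimers of an alpha, a beta and a gamma chain that build the same membrane around satellite glia, Schwann cells and vessels. Integrins are pairs of an alpha and a beta chain through which cells bind both, and laminin with its integrin receptors is a well known substrate of axon growth.

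Col4a1 and Col4a2, the chains of the main basement membrane collagen, lie head to head on chromosome 8, with RefSeq starts 21 bp apart. Their RefSeq promoter entries (GRCm38.p6, 250 bases before to 50 after the start) overlap by 78 bp. They are chr8:11312777-11313076 on the minus strand for Col4a1 and chr8:11312555-11312854 on the plus strand for Col4a2, and they are shown because their peaks lead the acetylation results. Capitals mark a GC box (GGGCGG) or a CCAAT box (CCAAT), on either strand.
Col4a1: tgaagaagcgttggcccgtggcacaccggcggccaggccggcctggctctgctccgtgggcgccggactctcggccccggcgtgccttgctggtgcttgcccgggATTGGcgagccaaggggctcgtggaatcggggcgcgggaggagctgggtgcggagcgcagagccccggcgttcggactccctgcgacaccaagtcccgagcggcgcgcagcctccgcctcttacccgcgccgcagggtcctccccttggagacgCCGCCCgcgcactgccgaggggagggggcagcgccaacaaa
Col4a2: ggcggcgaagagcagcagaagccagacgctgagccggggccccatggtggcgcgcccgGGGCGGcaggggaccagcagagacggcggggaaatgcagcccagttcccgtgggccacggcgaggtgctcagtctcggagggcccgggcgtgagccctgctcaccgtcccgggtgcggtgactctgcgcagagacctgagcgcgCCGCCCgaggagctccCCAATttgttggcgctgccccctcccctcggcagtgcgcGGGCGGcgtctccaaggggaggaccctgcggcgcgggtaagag
The Col4a2 entry held 3 GC boxes and 1 CCAAT box, and the Col4a1 entry held 1 of each. Their GC contents were 73.7% and 74.0%, against a median of 59.0% over the members' 66 entries and 56.3% over the 21263 entries of protein-coding genes.

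Another 3 promoters are printed for their contrasts in the lists. Col24a1, a fibrillar collagen gene (chr3:145292222-145292521, plus strand), had open chromatin and H3K9ac at its start in every list. Col6a4, a beaded filament collagen gene (chr9:106096642-106096941, minus strand), had neither an ATAC nor an acetylation peak there in any. Itgb7, the beta chain of lymphocyte integrins (chr15:102231886-102232185, minus strand), was the single member whose start gained an ATAC peak after both injuries, and its entry was chosen after its values were seen. Capitals mark GC and CCAAT boxes and, in Col24a1, a cyclic AMP response element (CRE, TGACGTCA).
Col24a1: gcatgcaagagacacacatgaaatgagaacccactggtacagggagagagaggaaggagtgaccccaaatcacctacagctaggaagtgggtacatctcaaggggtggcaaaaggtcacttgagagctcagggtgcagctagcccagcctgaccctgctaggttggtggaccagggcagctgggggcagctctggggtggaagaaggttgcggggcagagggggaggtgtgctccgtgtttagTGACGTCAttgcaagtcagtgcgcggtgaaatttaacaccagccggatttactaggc
Col6a4: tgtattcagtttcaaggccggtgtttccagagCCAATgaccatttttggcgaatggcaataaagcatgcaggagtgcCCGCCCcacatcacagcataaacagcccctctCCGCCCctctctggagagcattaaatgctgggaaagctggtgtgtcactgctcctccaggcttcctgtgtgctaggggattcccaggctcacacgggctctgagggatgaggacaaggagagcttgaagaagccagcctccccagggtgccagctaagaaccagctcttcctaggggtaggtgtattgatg
Itgb7: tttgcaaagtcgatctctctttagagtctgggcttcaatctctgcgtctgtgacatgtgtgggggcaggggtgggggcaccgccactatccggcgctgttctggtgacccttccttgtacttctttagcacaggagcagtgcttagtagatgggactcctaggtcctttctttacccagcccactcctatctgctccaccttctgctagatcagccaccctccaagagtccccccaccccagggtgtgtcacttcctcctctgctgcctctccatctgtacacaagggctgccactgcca
The Itgb7 entry held none of the 4 motifs searched on both strands, the last being the AP-1 site TGANTCA. None of the 4 patterns contains another. The CRE was found in 2.23% of all 21263 entries and in 1 of the 66 entries of members, and the AP-1 site in 6.99% and 6.06%. GC boxes were in 46.2% of all entries and 53.0% of the members' entries, and CCAAT boxes in 38.2% and 25.8%. Entries exist for 60 of the 83 members, and Itga7 is named only.

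Peaks were counted in a window of the gene body and 10 kb on either side. A gene's start counted as occupied when a peak lay within 1 kb of a RefSeq start, or of either gene end for the 23 members without an entry. The members' genes are long, with a median of 75.5 kb against 17.2 kb over all protein-coding genes, and 10 of them share window sequence with another member. Sensory neuron markers had an ATAC peak at the start of 9 to 10 of 10 genes in every list. They had H3K9ac at 1 to 3 and H3K27ac at 1 to 4 of 10, whereas markers of satellite glia and Schwann cells had H3K9ac at 8 to 9 and H3K27ac at 6 to 10 of 10. Fibroblast markers had ATAC peaks at 1 to 2 of 5 starts, endothelial markers at 3 to 5, and macrophage markers at 2 to 3. Macrophage markers had H3K27ac at none of 5 starts in any list. By surgery, in the order Sham, SNA, Lam and DCA, H3K27ac was at 8, 9, 10 and 6 of 10 glial starts, at 1, 3, 2 and 2 of 5 fibroblast starts and at 2, 2, 2 and 0 of 5 endothelial starts. Glial and fibroblast counts were lower after Sham than after SNA or Lam, by few genes, while endothelial counts were level across these lists. Glial and endothelial counts were lowest after DCA. Over all genes H3K27ac was at 40.4% of starts after Sham, 51.6% after SNA, 51.3% after Lam and 43.3% after DCA. The part of these cells in the members' values was not tested. More cells of a type and more signal per cell cannot be told apart in whole ganglia.

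Starts of the members were mostly open after every surgery. An ATAC peak was at the start in all 4 lists for 58 members, 69.9%, against 62.1% of all protein-coding genes. All 11 laminin genes had one in every list, against 27 of 44 collagen genes and 20 of 28 integrin genes. H3K9ac was present in all 4 lists at 41 members, 49.4% against 43.2%, and H3K27ac at 30 members, 36.1% against 32.7%. H3K27me3 was present in all 4 at Col4a3 alone, 1.20% of the members against 3.40% of all genes. Either gene end counted for Col4a3. Its strongest peak was near chr1:82722059 after Sham, SNA and DCA and near the other end, chr1:82586921, after Lam. The mark is therefore not shown at 1 and the same end in all 4 lists.

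A core of 26 members had ATAC, H3K9ac and H3K27ac peaks at the start in all 12 lists, 31.3% against 28.2% of all genes. For members without an entry either gene end counted, so the marks can lie at different ends. The strongest Sham peaks of H3K9ac and H3K27ac did so in Col26a1. It held Lama2, Lama4, Lamb1, Lamb2 and Lamc1, which together can form the laminins of Schwann cell and vessel basement membranes. It also held Col4a1, Col4a2, Col5a1, Col14a1, Col15a1 and Col18a1. Among receptors it held Itgb1, the beta chain shared by most integrins, and the laminin-binding chains Itga3, Itga6 and Itga7. Itga1 and Itga2, which bind collagen, Itgav, which binds RGD motifs, and Itgb4 and Itgb8 belonged to it too. Its other members were Itga4, Itgb3, Itgb3bp, Col9a2, Col11a2 and Col26a1.

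**Figure D1:**
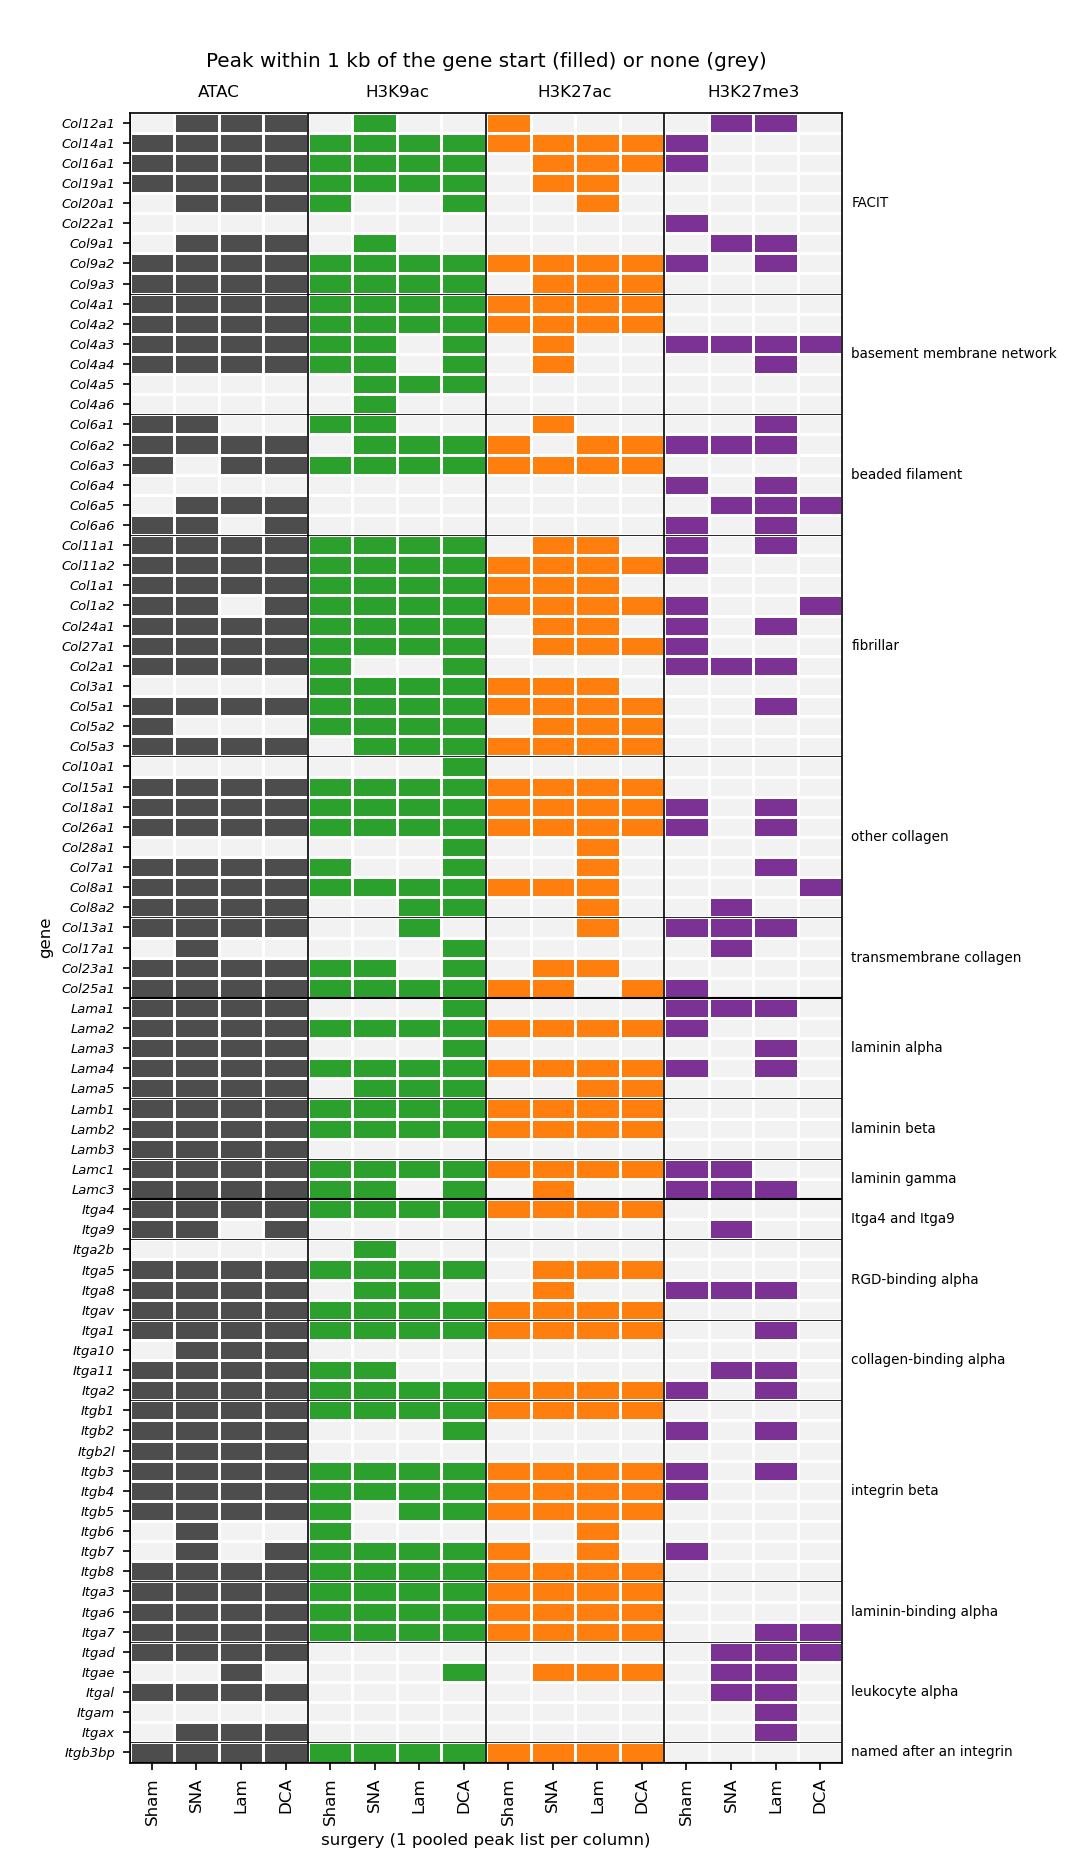
Peaks at the starts of the members shown. Rows are genes grouped by family and subgroup, columns are the 4 surgeries within each assay, and a filled cell is a peak within 1 kb of the start. The ATAC columns of the laminin genes are filled throughout, and the leukocyte alpha chains are nearly empty in both acetylation blocks.

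Only 3 members had none of these 3 signals at the start in any list, 3.61% against 21.5% of all genes. They were Itgam, the alpha chain of macrophages and neutrophils, Col6a4, and Col22a1, a collagen of tissue junctions. Of the 5 leukocyte alpha chains (Itgad, Itgae, Itgal, Itgam and Itgax), none had H3K9ac at the start in the Sham, SNA or Lam list and 1, Itgae, had it after DCA. Itgae was also the single one with H3K27ac, after SNA, Lam and DCA. Itgb2, the beta chain of the other 4, had an ATAC peak at its start in all 4 lists, H3K9ac after DCA only and H3K27ac in none. The macrophage markers at 0 for H3K27ac stand beside these values, and their part in them was not tested.

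The X-linked pair Col4a5 and Col4a6, minor chains of type IV collagen, had no ATAC peak anywhere in their windows in any list. They had no H3K27ac peak either, and at most 2 H3K9ac peaks in a list. Of all 966 X-linked genes, 54.8% had no ATAC peak in the window in any list, against 8.31% of the other genes.

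Start peaks that differed between an injury and its control were few for ATAC. After SNA, 9 members (10.8%) gained an ATAC start peak and 2 lost one, against 5.17% and 3.23% of all genes. After DCA, 4 gained and 1 lost one, against 4.60% and 3.50%. The gains after SNA were at Col6a5, Col9a1, Col12a1, Col17a1, Col20a1, Itga10, Itgax, Itgb6 and Itgb7. All but Itgb7 of these lacked a gain after DCA, and for Col6a5, Col9a1, Col12a1, Col20a1, Itga10 and Itgax the Lam list held the peak as well. Itgb7 had no ATAC start peak after Sham or Lam. After SNA its peak was at chr15:102231748-102232100 with a fold enrichment of 2.31 and a −log10 p of 9.66, and after DCA at chr15:102231681-102232163 with 2.04 and 6.86. Its H3K9ac start peak was in all 4 lists, and its H3K27ac start peak was in both control lists and in neither injury list.

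H3K9ac starts were gained by 10 members and lost by 5 after SNA, against 5.19% and 3.84% of all genes, so 12.0% and 6.02% of members. After DCA, 14 members (16.9%) gained one and 2 lost one, against 9.43% and 0.571%. With the lists cut to equal length, taking the strongest peaks of each, the direction after SNA turned, with 3 gains and 12 losses (14.5%, against 8.42% of all genes). After DCA gains and losses were then 8 each, against 6.49% and 1.82%. H3K27ac starts were gained by 16 members (19.3%) after SNA and lost by 3, against 13.6% and 2.39%. After DCA 1 member gained an H3K27ac start and 14 (16.9%) lost one, against 2.40% and 10.4%. Lam against Sham, 2 surgeries without axotomy, gave 18 gains (21.7%) against 13.0% of all genes. H3K27ac starts were thus mostly gained after SNA and mostly lost after DCA, and gains between the 2 controls were as many as 18, against 16 after SNA. At equal length 9 were gained and 4 lost after SNA, and 1 gained and 12 lost after DCA, against 10.7%, 4.41%, 4.46% and 8.54% of all genes, so that the gains after SNA (10.8%) were near the share of all genes. Among fibrillar collagens, H3K27ac was at 6 of 11 starts after Sham, 10 after SNA, 10 after Lam and 6 after DCA.

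Col1a1 and Col1a2, the chains of type I collagen, and Col3a1, of type III, carried H3K9ac at a start or gene end in all 4 lists. H3K27ac was there in all 4 for Col1a2, and in all but DCA for Col1a1 and Col3a1. Col3a1 had no ATAC start peak in any list. Window peaks of H3K27ac in Col1a1 numbered 4 after Sham, 17 after SNA, 13 after Lam and 6 after DCA. For Col3a1 they numbered 3, 8, 7 and 2. In lists of equal length Col1a1 had 4, 10, 8 and 6, still highest after SNA, and Col3a1 had 3, 3, 4 and 2, with SNA level with Sham.

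Over the members' windows together, H3K27ac peaks numbered 375 after Sham, 846 after SNA, 704 after Lam and 419 after DCA. The log2 ratio of SNA over Sham was 1.17 (95% interval 1.00 to 1.35), against 0.81 over all genes. That of DCA over Lam was −0.75 (−0.93 to −0.57), against −0.52, and that of Lam over Sham 0.91, against 0.64. The peaks covered 248 kb after Sham, 512 after SNA, 523 after Lam and 241 after DCA, so by length SNA and Lam were close, as were Sham and DCA, while the authors' median fold enrichment ranged only from 3.85 to 4.19. The lists themselves differ in length, from 43803 peaks after Sham to 75824 after SNA. With each list cut to its strongest 43803 peaks, the members' SNA over Sham ratio was 0.29 (0.09 to 0.49), against 0.05 over all genes. DCA over Lam was then −0.11 (−0.31 to 0.09) and Lam over Sham 0.19 (−0.01 to 0.40).

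**Figure D2:**
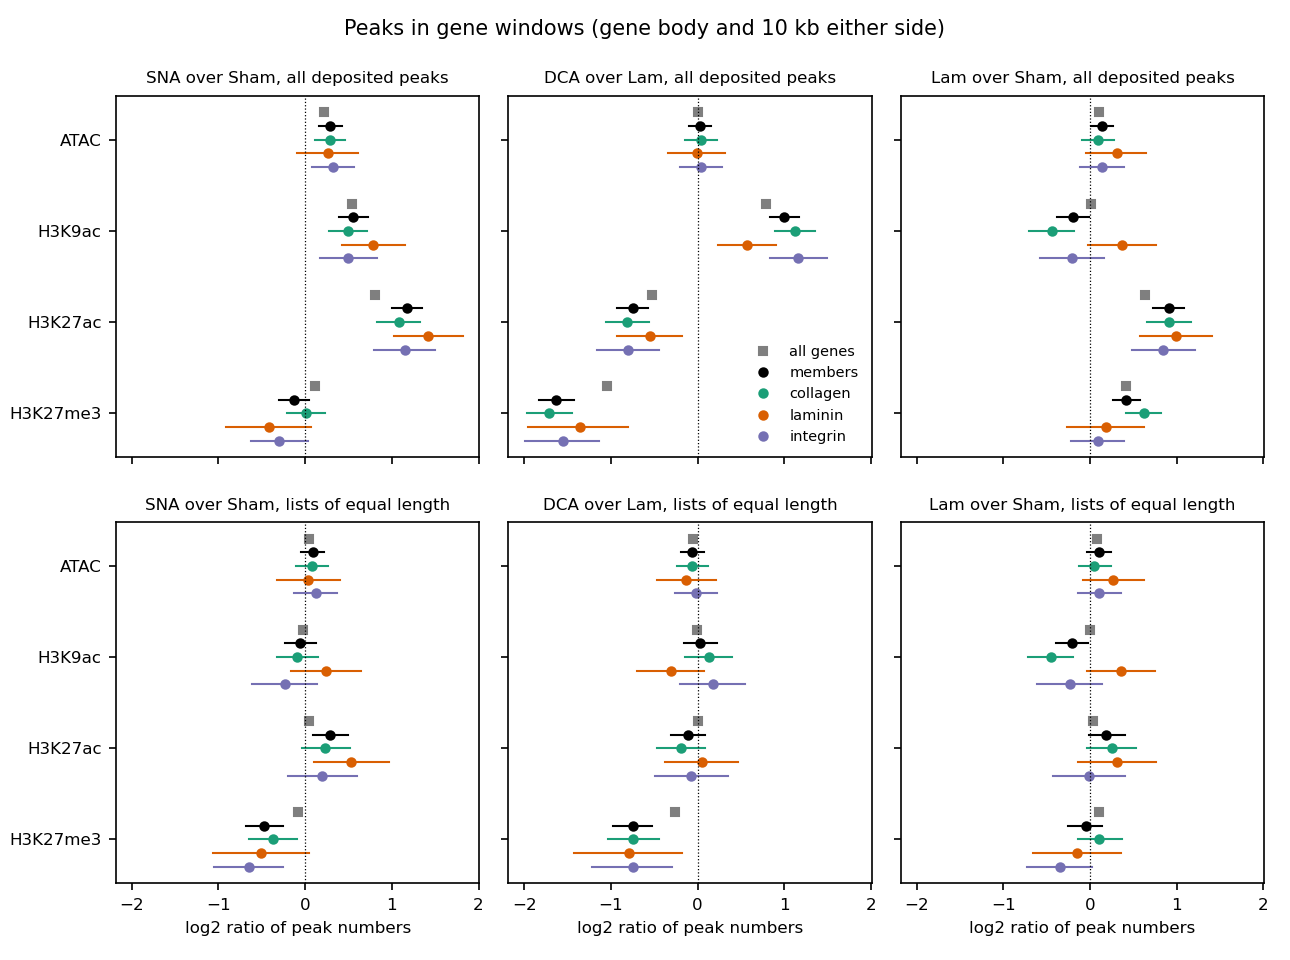
Ratio of peak numbers in gene windows, on a log2 scale, for SNA over Sham, DCA over Lam and Lam over Sham. Points are all genes (squares), the 83 members and each family, and bars are 95% intervals for counting error. The upper panels use all deposited peaks and the lower ones lists of equal length, where most ratios lie near 0 and that of H3K27ac in laminins after SNA is 0.53.

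Laminin genes had the largest H3K27ac ratio of the 3 families after SNA. Their windows held 76 peaks after Sham and 203 after SNA, a ratio of 1.42 (1.03 to 1.82), against 1.08 for collagens and 1.15 for integrins. The 3 intervals overlap. At equal list length the laminin value was 0.53 (0.10 to 0.97), from 110 and 76 peaks, that of collagens 0.23 (−0.04 to 0.52) and that of integrins 0.20 (−0.20 to 0.60). After DCA the laminins had 103 H3K27ac peaks against 151 after Lam, a ratio of −0.55, which was 0.05 at equal length.

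The basement membrane chains Lamc1, Col4a2, Col4a1 and Lamb1 had the most H3K27ac peaks of the members, with 170, 157, 116 and 110 over all lists. Other such chains had few, with 0 in Col4a5 and Col4a6, 3 in Lama3, 4 in Col4a3 and 5 in Lama1. Lamc1, the gamma chain of most laminins, had 23 H3K27ac peaks after Sham, 62 after SNA, 50 after Lam and 35 after DCA. Col4a2 had 19, 61, 51 and 26, and its neighbour Col4a1 had 17, 41, 39 and 19. Both ranked SNA and Lam above DCA and Sham.

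Lamb1, a beta chain, had 17 H3K27ac peaks after Sham, 44 after SNA, 25 after Lam and 24 after DCA. Lama2, the alpha chain of the Schwann cell laminin, had 6, 38, 26 and 8. Lama4, an alpha chain of vessels and nerve, had 6, 27, 18 and 5. For these 3 as well, SNA was the highest of the 4 lists.

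Lamc1, Col4a2, Lama2 and Lamb1, like Col14a1 below, were named for their large H3K27ac rise after SNA. Their lead of SNA over Sham therefore came with the choice. At equal list length, which keeps a part of the same peaks, SNA stayed above Sham in these 6 genes. The H3K27ac counts of Lamc1 were then 23 after Sham, 37 after SNA, 28 after Lam and 32 after DCA. Those of Col4a2 were 19, 35, 27 and 24, and those of Lamb1 17, 29, 19 and 23. For Lama2 they were 6, 16, 13 and 8, for Lama4 6, 12, 11 and 5, and for Col4a1 17, 30, 21 and 17. DCA lay above Lam in Lamc1 and Lamb1 and below it in the other 4, so the direction after DCA was not shared.

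**Figure D3:**
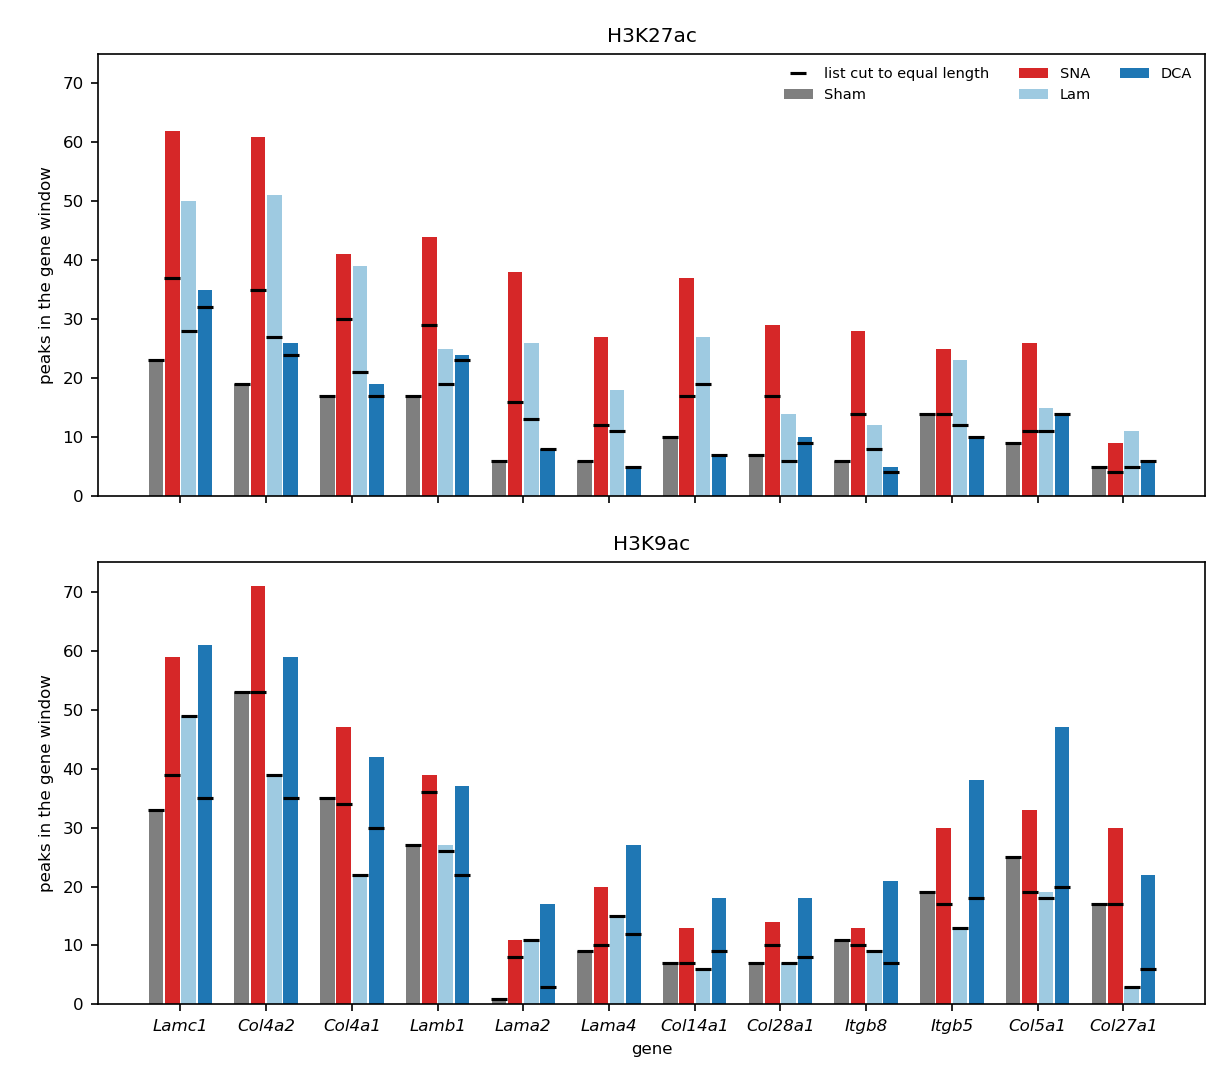
H3K27ac (top) and H3K9ac (bottom) peaks in the windows of 12 named genes. Bars are all deposited peaks of each surgery and black ticks are lists cut to equal length. For H3K27ac, SNA is the tallest bar in Lamc1 at 62 and in Col4a2 at 61, and DCA is the tallest H3K9ac bar in Col5a1 at 47.

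The receptors of these chains had fewer peaks. Itgb1 had 1 H3K27ac peak in its window after Sham, 6 after SNA, 3 after Lam and 4 after DCA, and the fold enrichment of the peak at its start was 3.96, 12.1, 9.06 and 6.24. Its ATAC start peak had folds between 5.82 and 6.52, a narrower range. Itga6 had 8, 20, 11 and 12 H3K27ac peaks in its window, and Itgb4, its partner in epithelia, 8, 18, 15 and 12. Itgav had 2, 12, 9 and 3, and Itga1 had 4, 12, 6 and 5. Itga3 had 4, 9, 5 and 3, and Itga7 9, 11, 11 and 7. In the full lists SNA was the highest in each of them by peak number, level with Lam in Itga7. By covered length Lam was above SNA in Itgb1, Itgb4, Itgav and Itga7, and below it in Itga1, Itga3 and Itga6. Itga5, the fibronectin receptor chain, was highest after Lam instead, with 2, 2, 6 and 1. With lists of equal length SNA stayed highest in Itgb4, with 8, 14, 7 and 10, in Itgav, with 2, 5, 3 and 3, and in Itga3, with 4, 6, 4 and 3. It did not in Itga6, with 8, 7, 5 and 10, in Itga7, with 9, 8, 9 and 6, or in Itga1, with 4, 4, 5 and 5. Itgb1 then had 1, 4, 3 and 4. The 3 laminin-binding alpha chains together had 21 peaks after Sham and 21 after SNA.

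By chain, laminin alpha genes had 24 H3K27ac peaks after Sham and 74 after SNA, a ratio of 1.62 (0.94 to 2.35). Beta genes had 24 and 52, and gamma genes 28 and 77. Cut to equal length, the ratios were 0.46 (−0.34 to 1.28), 0.54 (−0.25 to 1.36) and 0.58 (−0.14 to 1.33), and each interval includes 0. DCA over Lam was −1.39 (−2.19 to −0.64) for alpha genes, 0.00 (−0.74 to 0.74) for beta genes and −0.36 (−0.93 to 0.20) for gamma genes. At equal length these were −0.63 (−1.52 to 0.22), 0.31 (−0.50 to 1.13) and 0.28 (−0.38 to 0.93). At the start of Lamb1, H3K27ac had a fold of 3.96 after Sham, 8.37 after SNA, 6.57 after Lam and 8.05 after DCA. Lama5, the other main alpha chain of vessels, had 9, 8, 9 and 6 H3K27ac peaks, with SNA not above Sham. The type VI chains Col6a1 and Col6a2, fibroblast products that form beaded filaments, had at most 3 H3K27ac peaks in any list. Col6a3, another type VI chain, had more, with 2, 6, 5 and 3, and H3K27ac at its start in all 4 lists.

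Other members had high counts in the same list. Col14a1, a fibril-associated collagen, had 10 H3K27ac peaks after Sham, 37 after SNA, 27 after Lam and 7 after DCA. Col28a1, a collagen of peripheral nerve, had 7, 29, 14 and 10. Itgb8, a beta chain that pairs with Itgav, had 6, 28, 12 and 5. Col28a1 was named outside the rules for named genes, with its counts known. At equal length, which keeps a part of the same peaks, Col28a1 had 17 peaks after SNA against 7 after Sham, and Itgb8 14 against 6. Col14a1 then had 10, 17, 19 and 7, with Lam above SNA. The largest fall after SNA was in Col8a2, a collagen of vessels and cornea, with 9, 2, 10 and 4 peaks. The largest after DCA was in Col4a2, from 51 to 26.

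A window was called higher or lower when it held at least 3 peaks more or fewer and at least 2 times as many or as few. For H3K27ac after SNA, 36 members (43.4%) were higher, against 14.3% of all genes and 20.4% of genes with windows of 54.0 to 158 kb, the middle range of the members. After DCA, 24 members (28.9%) were lower, against 8.03% and 11.5%. Lam against Sham gave 29 higher (34.9%), against 10.1% and 14.6%. The members' shares here and below are over all 83, longer windows included, so they are not matched for length. At equal list length these counts were 9 (10.8%), 5 (6.02%) and 5 (6.02%) members. The shares of all genes were then 3.88%, 1.90% and 2.28%, and those of genes of middle length 5.45%, 2.72% and 3.03%. The 9 members after SNA were Col1a1, Col11a1, Col28a1, Itgae, Itgav, Itgb1, Itgb8, Lama2 and Lama4.

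**Figure D4:**
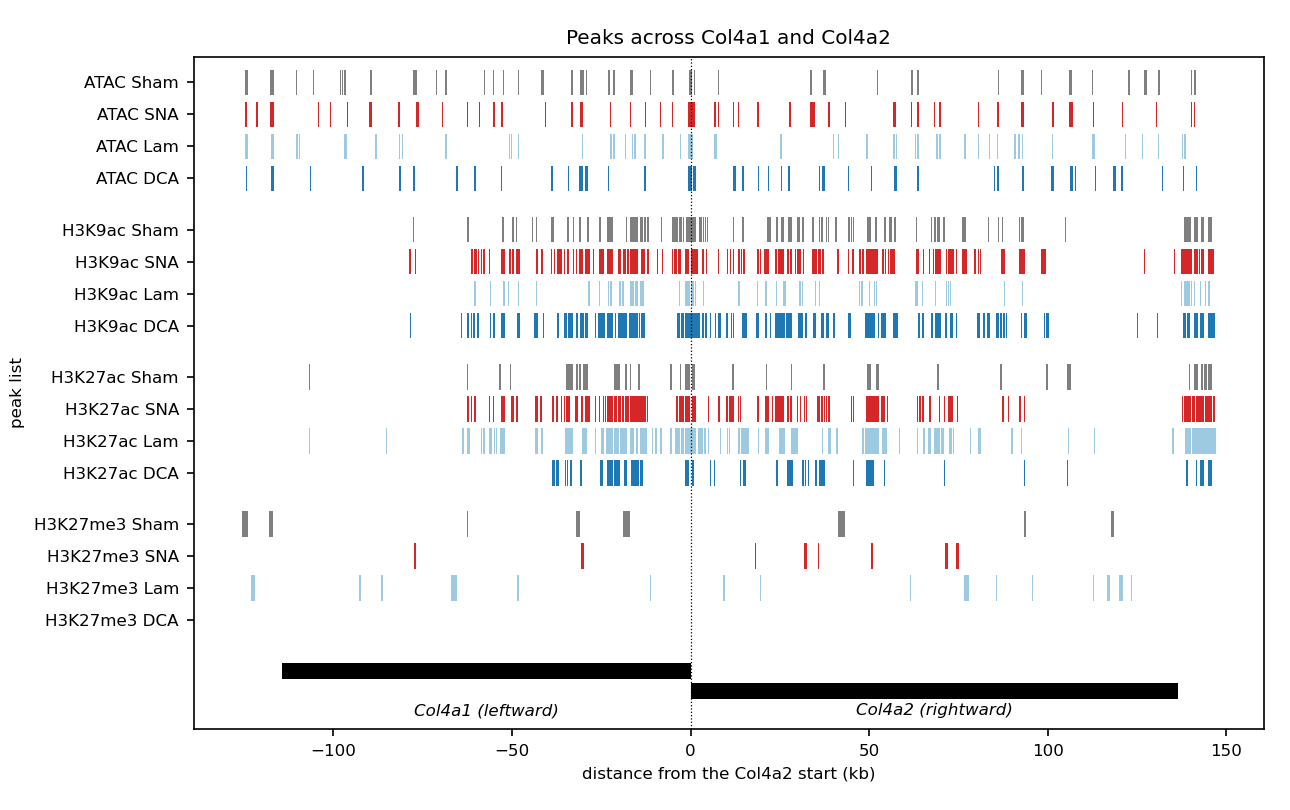
Peaks of the 16 lists across Col4a1 and Col4a2 by distance in kb from the Col4a2 start. Each bar is a peak drawn to scale, and the black bars are the genes. H3K27ac covers 22.4 kb after Sham, 59.7 kb after SNA, 62.7 kb after Lam and 27.1 kb after DCA. H3K9ac peaks number 77 after Sham, 107 after SNA, 55 after Lam and 91 after DCA, on both sides of the paired starts. The lists are not cut to equal length.

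H3K9ac had another order of surgeries. The members' windows held 527 peaks after Sham, 773 after SNA, 461 after Lam and 923 after DCA, so that both injuries lay above their controls. SNA over Sham was 0.55, against 0.54 over all genes, and DCA over Lam was 1.00 (0.84 to 1.17), against 0.79. Lam over Sham was −0.19 (−0.38 to −0.01), against 0.01. The members covered 287 kb after Sham, 451 after SNA, 208 after Lam and 630 after DCA. The share of H3K9ac peaks in member windows with a q of at most 0.05 was 50.7% after Sham, 87.7% after SNA, 82.0% after Lam and 98.4% after DCA. The H3K9ac lists differ in length too, from 50332 peaks for Sham to 89647 for DCA. At equal list length the ratios were −0.06 (−0.23 to 0.12) for SNA and 0.03 (−0.16 to 0.22) for DCA.

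Col5a1, which starts the assembly of collagen fibrils, had 25 H3K9ac peaks after Sham, 33 after SNA, 19 after Lam and 47 after DCA. Itgb5, a partner of Itgav, had 19, 30, 13 and 38. Lamc1 had 33, 59, 49 and 61, and Lama2 had 1, 11, 11 and 17. In all 4 genes the DCA list was the highest. Col5a1 and Itgb5, like Col4a1, Col4a2 and Col27a1 below, were named for a large H3K9ac rise after DCA. Their lead of DCA over Lam therefore came with the choice. At equal length DCA was the highest in none of the 4. Lamc1 then had 33, 39, 49 and 35, Lama2 1, 8, 11 and 3, Col5a1 25, 19, 18 and 20, and Itgb5 19, 17, 13 and 18. Col4a2 was instead highest after SNA, with 53, 71, 39 and 59 peaks, and ranked 23rd to 76th among all genes by its number of H3K9ac peaks. Col4a1 was highest after SNA too, with 35, 47, 22 and 42. Col27a1, a fibrillar collagen of cartilage, had 17, 30, 3 and 22, with Lam the lowest. At equal length its counts were 17, 17, 3 and 6, so that both spinal surgeries were then below Sham and SNA.

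After DCA, 38 members (45.8%) had a higher H3K9ac window, against 16.9% of all genes and 23.3% of genes of middle length, and after SNA 13 (15.7%) against 8.23% and 12.1%. In Lam against Sham 12 members (14.5%) were lower, against 3.83% and 4.50%. At equal length the counts were 9 (10.8%) after DCA, 2 (2.41%) after SNA and 12 (14.5%) between the controls, against 3.33%, 1.77% and 3.88% of all genes. With q at most 0.05, 1 of the 83 was lower after Lam than after Sham, Col27a1, and Lam over Sham turned to 0.50. Among all peaks, the 12 lower members after Lam included Col1a1, Col16a1, Col18a1, Col20a1 and Col27a1. Col1a1 had 14 H3K9ac peaks after Sham, 14 after SNA, 5 after Lam and 19 after DCA.

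ATAC peaks in member windows numbered 869 after Sham, 1065 after SNA, 957 after Lam and 979 after DCA. SNA over Sham was 0.29 (0.16 to 0.42), against 0.22 over all genes, and DCA over Lam was 0.03 (−0.10 to 0.16), against 0.01. After SNA 12 members (14.5%) were higher, against 7.65% of all genes and 9.45% of genes of middle length, and at equal length 5 were. Laminin-binding alpha chains had 23 peaks after Sham, 42 after SNA, 36 after Lam and 35 after DCA, a ratio of 0.87 (0.10 to 1.67) after SNA and −0.04 after DCA. At equal length the first was 0.69, with an interval that includes 0. Itga7, a laminin receptor chain of muscle and sensory neurons, had 7, 15, 12 and 12 ATAC peaks. Itga6, its relative, had 7, 15, 11 and 11. Both were lowest after Sham.

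The largest rise in ATAC peaks after SNA was in Itga9, a chain that binds tenascin, with 35 peaks after Sham, 50 after SNA, 54 after Lam and 43 after DCA. Lam was thus the highest of its 4 lists. The beaded filament collagen Col6a5 had 11, 25, 13 and 16, and its neighbour Col6a6 had 9, 21, 21 and 19. Neither had an H3K9ac peak in its window in any list, and H3K27ac was at 0 in all lists but Sham, where Col6a6 had 3 peaks. After DCA the largest rise was in Lama3, an alpha chain of epithelial laminin, with 34, 30, 22 and 37 peaks.

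H3K27me3 was the weakest of the 4 assays in these genes. Its median fold enrichment in member windows was between 1.13 and 1.19, and of 604 peaks after Sham 15 had a q of at most 0.05, with none of 553 after SNA, 809 after Lam or 262 after DCA. DCA over Lam was −1.63, against −1.04 over all genes, and SNA over Sham −0.13, against 0.11. At equal length these were −0.75 (−0.98 to −0.53) and −0.47 (−0.68 to −0.26), against −0.26 and −0.08 over all genes. After DCA 47 members (56.6%) had a lower window, against 27.6% of all genes and 38.6% of genes of middle length, and after SNA 13 (15.7%) against 6.90% and 10.4%. The covered length was 727 kb after Sham, 557 after SNA, 889 after Lam and 217 after DCA.

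Among single genes, Col13a1, a transmembrane collagen, had 27 H3K27me3 peaks after Sham, 22 after SNA, 29 after Lam and 2 after DCA. Lamc3, a gamma chain, had 19, 5, 14 and 0. Itga9 had 36, 31, 41 and 12. A start peak of H3K27me3 was lost by 22 members (26.5%) after SNA and 31 (37.3%) after DCA, against 12.1% and 19.2% of all genes. One was gained by 10 members (12.0%) after SNA and 2 (2.41%) after DCA, against 6.84% and 2.51%. Members that lost it after both included Col6a4, Col6a6, Col9a2, Col11a1, Col18a1, Col24a1, Col26a1, Itga2, Itgb2, Itgb3 and Lama4. The strongest Sham and Lam peaks were at different starts in Col18a1 and at different gene ends in Col26a1, Itgb2 and Itgb3. For these genes a loss at 1 and the same place after both injuries is not shown. In Lama4 both peaks were near chr10:39110188, and its H3K27ac peaks were at the other end. Some members had ATAC, acetylation and H3K27me3 peaks, each at any counted start or gene end. These marks need not share a place. After Sham the strongest H3K27ac peak of Lama4 was near chr10:38965515 and its H3K27me3 peak near chr10:39110188. Such members numbered 21 (25.3%) after Sham, 8 (9.64%) after SNA, 17 (20.5%) after Lam and 4 (4.82%) after DCA. Over all genes the shares were 7.28%, 3.21%, 7.59% and 1.70%, which were also lower after each injury. The H3K27me3 lists held 122953, 141635, 154055 and 90011 peaks. Col6a4 and Col6a5 instead had more H3K27me3 window peaks after SNA, with 22 against 10 and 24 against 12, and 9 against 6 and 15 against 10 at equal length. With q limited to 0.05, 1 start peak was lost after SNA and 0 after DCA, so these losses rest on peaks with an authors' q above 0.05.

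Most member peaks lay inside the gene and away from the start. The share at a start was 8.57% to 9.70% for ATAC, against 15.2% to 16.9% over all genes. For H3K9ac it was 9.64% to 15.0%, against 23.6% to 36.0%, and for H3K27ac 10.3% to 13.4%, against 28.5% to 32.2%. In every list 69.7% to 80.8% of their peaks lay in the gene body beyond 1 kb of a start, against 56.2% to 71.4% over all genes. Most peaks thus lay there over all genes too. The members' greater length stands beside these shares, and its part in them was not tested.

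Open chromatin and acetylation overlapped in a minority of the peaks of the members. Of their ATAC peaks, 14.2% overlapped an H3K27ac peak after Sham, 21.8% after SNA, 22.4% after Lam and 14.5% after DCA. For H3K9ac the shares were 19.8%, 24.4%, 16.1% and 30.4%. For H3K27ac the shares were higher after SNA and Lam, which had the longer lists, than after Sham and DCA. For H3K9ac they were higher after SNA and DCA, which had the longer lists, than after Sham and Lam. The order did not follow length throughout, with Lam above SNA for H3K27ac and Sham above Lam for H3K9ac. The part of list length was not tested. The H3K27ac lists held 43803, 75824, 67311 and 46489 peaks, and the H3K9ac lists 50332, 74652, 50667 and 89647. The same shares over all genes are not given here, so no trait of the members can be read from these differences. Between 30.6% and 37.7% of the members' H3K27ac peaks overlapped an ATAC peak, against 43.4% to 46.3% over all genes, and for H3K9ac 33.2% to 36.2%, against 41.4% to 49.8%.

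Regions present in both injury lists and in neither control list were counted after merging the lists of an assay. There were 113 such H3K9ac regions among 1165 in member windows, 9.70% against 8.50% over all genes. In both controls only there were 3, 0.258% against 0.339%, so all genes showed the same imbalance. Both injury lists of H3K9ac were also longer than those of their controls. Lamc1 held 10 of the 113, Col4a1 9, Col4a2 8, Lamb1 8, Col27a1 7 and Itgb5 7. For ATAC there were 119 of 2145, 5.55% against 4.35%, and for H3K27ac 28 of 1051, 2.66% against 2.36%. Lamb1 had a pair of such H3K9ac regions inside the gene. One lay at chr12:31311583-31312104, 46.5 kb from the start, with a fold enrichment of 5.24 and a −log10 p of 9.05 after SNA. The other was at chr12:31296219-31296969, 31.3 kb from the start, with 4.87 and 8.19. Lamc1 had one at chr1:153314248-153314582, with 4.74 and 13.1 after DCA, and Itgb5 one at chr16:33914635-33915845, 85.6 kb from its start, with 4.47 and 12.3 after DCA. For H3K27ac, Col18a1 had one at chr10:77097251-77098408, 15.9 kb from the nearer start, with 5.51 and 10.1 after SNA. The strongest H3K27ac peak of SNA without a control peak was in Col24a1 at chr3:145513120-145514292, 221 kb from the start, with 6.89 and 14.9, and DCA had none there. Coordinates are in mm10, counted from 1, and exons were not assigned. The fold enrichments and p-values are the authors'.

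A list of 52 further matrix and adhesion genes, among them fibronectin (Fn1), nidogens, matrix proteases and the talin and kindlin genes that act on integrin tails, was counted in the same way. Their windows held 378 H3K27ac peaks after Sham, 741 after SNA, 599 after Lam and 402 after DCA. SNA over Sham was 0.97 and DCA over Lam −0.58, both between the members' values and those of all genes. For H3K27ac after SNA, 16 of the 52 (30.8%) were higher, against 14.3% of all genes, and 0 lower. After DCA 5 (9.62%) were lower, against 8.03%, and 0 higher. For H3K9ac, 8 (15.4%) were higher after SNA, against 8.23%, and 8 after DCA, against 16.9%, so the count after DCA was near the share of all genes. For ATAC, 6 (11.5%) were higher after SNA, against 7.65%.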

How the data were processed

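Peak lists of ATAC-seq and of ChIP-seq for 3 histone marks in mouse ganglia after 4 surgeries were analysed, 16 lists from 60 samples, grouped by their labels. The authors pooled the replicates of each condition into 1 list, per the labels. The build is mm10, per the submitters' processing notes; the aligner and the peak caller are not given in the sources used here. Each peak of the deposited lists has a whole-number score, which was not used, the fold enrichment, a linear ratio over background, and the −log10 p and −log10 q of each peak. The files hold no read totals, so depth is unknown. One member is counted in the totals and not reported by name here. Repeated ATAC intervals with several summits were collapsed.

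Peaks overlapping by 1 bp were counted with Python 3.11.15 and numpy. Ratios have exact binomial (Clopper-Pearson) 95% intervals for counting error only. No test between surgeries was possible. The counting was tested on simulated intervals. Members and lists were chosen with earlier results of these data known. Named genes were, in each assay and injury, up to 5 members with the largest rise and fall in window peaks, members whose start peak changed after both injuries, and a fixed list of main chains. Other genes, among them Col28a1, were named outside these rules. Named regions were the strongest peaks of an injury list without a control peak. Alternatives were limits on q, equal list lengths, no flank, a 5 kb start window, either gene end and a reciprocal overlap.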

Additional observations from a re-analysis of the deposited data

Results flagged for a closer look

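In H3K27ac the members moved in opposite directions after the 2 injuries, each against its own control, and the difference was not tested, because each list pools its replicates. The log2 ratio of SNA over Sham minus that of DCA over Lam was 1.92 over all members, 1.89 for collagens, 1.97 for laminins and 1.95 for integrins. Over all genes the 2 ratios were 0.81 and −0.52. At equal list length the members' ratios were 0.29 and −0.11, and the laminins' were 0.53 and 0.05.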

How the results depend on the processing

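No paired analysis was possible because each list pools the replicates of a condition, and no replicate could be left out for the same reason. At equal list lengths the log2 window ratios of SNA over Sham were 0.09 for ATAC, −0.06 for H3K9ac (direction changed), 0.29 for H3K27ac and −0.47 for H3K27me3. Those of DCA over Lam were 0.03 for H3K9ac, −0.11 for H3K27ac and −0.75 for H3K27me3, and those of Lam over Sham 0.19 for H3K27ac and −0.05 for H3K27me3 (direction changed). Equal lengths take the strongest peaks of the longer lists, so fewer peaks were counted. With q at most 0.05 the ratio was 0.53 (SNA) and 0.25 (DCA) for ATAC, and 1.34, 1.26 and, for Lam over Sham, 0.50 (direction changed) for H3K9ac. With −log10 q of at least 5 it was 0.83 and 0.37 for ATAC, 2.45, 3.15 and 1.93 (Lam over Sham, direction changed) for H3K9ac, and 0.21 and −1.12 for H3K27ac, and no H3K27me3 ratio could be formed under either limit on q. The causes were not tested. At equal length the H3K9ac start changes turned from 10 gained and 5 lost to 3 and 12 after SNA, and from 14 and 2 to 8 and 8 after DCA. Changes of start peaks numbered 7 within 5 kb for ATAC after SNA (11 within 1 kb) and 8 at either gene end after DCA (5 at starts). With q at most 0.05, 1 H3K27me3 start changed after SNA (32 without the limit) and 0 after DCA (33). H3K27me3 starts in all 4 lists numbered 1, against 0 with q at most 0.05, 0 at equal length, 8 within 5 kb and 2 at either gene end. Regions in both injury lists only fell from 113 to 30 for H3K9ac at equal length, from 25 to 0 for H3K27me3 with q at most 0.05, and were 45 in place of 28 for H3K27ac with 50% reciprocal overlap, counted over SNA peaks. Gene bodies without flanks moved no ratio beyond its interval.

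The next alternatives were chosen after seeing the data. Leaving out Itgb3bp moved no ratio beyond its interval. With the 60 members that have a RefSeq start, start changes numbered 9 for H3K9ac after DCA (16 with all members), 12 for H3K27ac after SNA (19), 20 and 21 for H3K27me3 after SNA and DCA (32 and 33), and 0 H3K27me3 starts in all 4 lists (1). With q at most 0.05, windows called higher after SNA numbered 19 for ATAC (12 with all peaks) and 35 for H3K9ac (13), those lower in Lam than Sham 1 for H3K9ac (12), and those lower for H3K27me3 2 after SNA (13) and 0 after DCA (47). At equal list length 5 were higher after SNA for ATAC, 2 for H3K9ac (13) and 9 for H3K27ac (36), 9 higher after DCA for H3K9ac (38), 5 lower after DCA (24) and 5 higher in Lam than Sham (29) for H3K27ac, and 31 lower after DCA for H3K27me3 (47). Depth is unknown, so a missing peak does not show a missing mark.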
